A study of Homo sapiens with 2 samples.

Results

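The 37 genes of human mitochondrial DNA were followed in TCam-2 cells, an established human seminoma line. Per the labels, the cells were transduced with a FLAG-tagged DDX53 and overexpress it. All genes with a symbol starting MT- were taken. There are 37 among the 62700 genes of the gene table, namely 13 for proteins, 2 for ribosomal RNAs and 22 for transfer RNAs, and a transcript of each was in the transcript table. The series holds 1 group with 2 replicate libraries of polyadenylated RNA, called replicate 1 and replicate 2. Both carry the DDX53 construct, and the labels do not say whether they come from separate transductions or cultures, so the spread between them may be technical. Libraries from cells with a GFP construct and from untransduced cells, which the design names as controls, were not analysed here. No effect of DDX53 was therefore computed, and every comparison is between genes, between the 2 libraries or between the 2 deposited tables.

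Mitochondrial DNA is a small circle that is copied into long RNAs from both strands. Most of its genes are read from the heavy strand, and a few transfer RNAs and 1 subunit of complex I are read from the light strand. The transfer RNAs lie between most of the other genes and are cut out of the long RNA, which frees most messenger and ribosomal RNAs. Some neighbours, such as MT-ATP8 and MT-ATP6 or MT-ND4L and MT-ND4, have no transfer RNA gene between them. A short poly(A) tail is then added to most of the messenger RNAs. In several of them it completes a stop codon of which the DNA encodes no more than the first letters. The 13 proteins are all subunits of the respiratory chain or of ATP synthase, which together make most of the ATP of a respiring cell.

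The ends of the coding sequences are shown because the libraries were made from RNA with a poly(A) tail, which in some of these genes completes the stop codon. The sequences are from the GENCODE 29 transcripts on GRCh38, as RNA-strand letters, with the encoded stop letters in capitals. In 6 of the 13 genes the sequence ends in an incomplete stop of T or TA. In all 6 the next gene is a transfer RNA gene on the same strand, with a gap of 0 bases. A gap of 0 bases also follows MT-CO1, MT-ND5 and MT-ND6, whose stops are whole, but the next gene there is on the other strand. The 6 genes with an incomplete stop are as follows.
MT-ND1: ccccctcaaaccTA
MT-ND2: ctaataatcttaT
MT-CO3: tgatgagggtctT
MT-ND3: gactgaaccgaaT
MT-ND4: gggttttcctctT
MT-CYB: ctcaaatgggccT
The other 7 end in a whole stop codon. In MT-CO1 and MT-ND6 this is AGA and AGG, which code for arginine outside mitochondria.
MT-CO1: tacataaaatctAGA
MT-CO2: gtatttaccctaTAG
MT-ATP8: cccccacaatccTAG
MT-ATP6: cacgacaacacaTAA
MT-ND4L: ctactccaatgcTAA
MT-ND5: ctcctaatcacaTAA
MT-ND6: gctcgggggaatAGG
No codon before the stop was AGA, AGG, TAA or TAG (0 of 3789 codons), and 12 of the 13 genes held TGA within the reading frame, 93 times in all. TGA is read as tryptophan in mitochondria. The start codon was ATG in 9 genes, ATA in 3 and ATT in 1. The mean level per length ranged from 520 to 2548 CPM per kilobase in the 6 genes with an incomplete stop and from 8.14 to 3949 in the 7 with a whole stop, so the ranges overlapped. CPM is a gene's reads scaled to the library's total of reads in genes.

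Neighbouring genes share bases in 4 places on the same strand, and the longer of these overlaps bear on the counts below. MT-ATP8 and MT-ATP6, which encode the 2 mitochondrial subunits of ATP synthase, overlap by 46 bases in different frames. MT-ND4L and MT-ND4 of complex I overlap by 7 bases. MT-ATP6 with MT-CO3 and MT-TC with MT-TY share 1 base each. The overlaps are printed in capitals with 12 bases on either side, at chrM:8515-8584 and chrM:10748-10778 on the plus strand.
MT-ATP8/MT-ATP6: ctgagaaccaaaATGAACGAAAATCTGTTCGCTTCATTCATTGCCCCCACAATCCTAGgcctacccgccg
MT-ND4L/MT-ND4: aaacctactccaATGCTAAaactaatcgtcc

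In total 24137664 reads fell in genes in replicate 1, and 22198929 did so in replicate 2. The construct's gene DDX53, an RNA helicase, had 146 and 147 reads, or 6.05 and 6.62 CPM. Without a control library these values do not show whether it was overexpressed. The markers of seminoma-like cells were present, with POU5F1 at 1906 ± 21.1 CPM and SOX17 at 145 ± 2.75 CPM (SD, n = 2 each). PTPRC of leukocytes and DAZL and SYCP1 of later germ cells had 0 reads, where 3 reads would be 0.124 CPM (replicate 1) or 0.135 CPM (replicate 2). PECAM1 of endothelium had 0 and 6 reads, and of the fibroblast genes DCN had 1 read in each library while LUM had 224 and 290 reads. In bulk RNA a larger share of cells with a transcript and more of it per cell cannot be told apart.

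Reads of the 37 genes came almost wholly from protein genes on the heavy strand. In replicate 1 the 37 genes took 392471 reads, 1.63% of all reads (95% Wilson interval, 1.62 to 1.63), and in replicate 2 they took 399189 reads, 1.80% (1.79 to 1.80). The 13 protein genes held 92.4% ± 0.0464 of the mitochondrial reads, the 2 ribosomal RNA genes 7.56% ± 0.0419 and the 22 transfer RNA genes 0.0139% ± 0.00448 (SD, n = 2 each). By strand, the 28 heavy strand genes, which lie on the plus strand of the reference, held 99.97% ± 0.0107, and the 9 light strand genes 0.0289% ± 0.0107 (SD, n = 2 each). The share of the classes moved by less than 0.2 percentage points between the libraries. All these shares are of the selected polyadenylated RNA. At least 1 CPM in both libraries was reached by 15 of the 37 genes, all 13 protein genes and both ribosomal RNA genes.

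**Figure D1:**
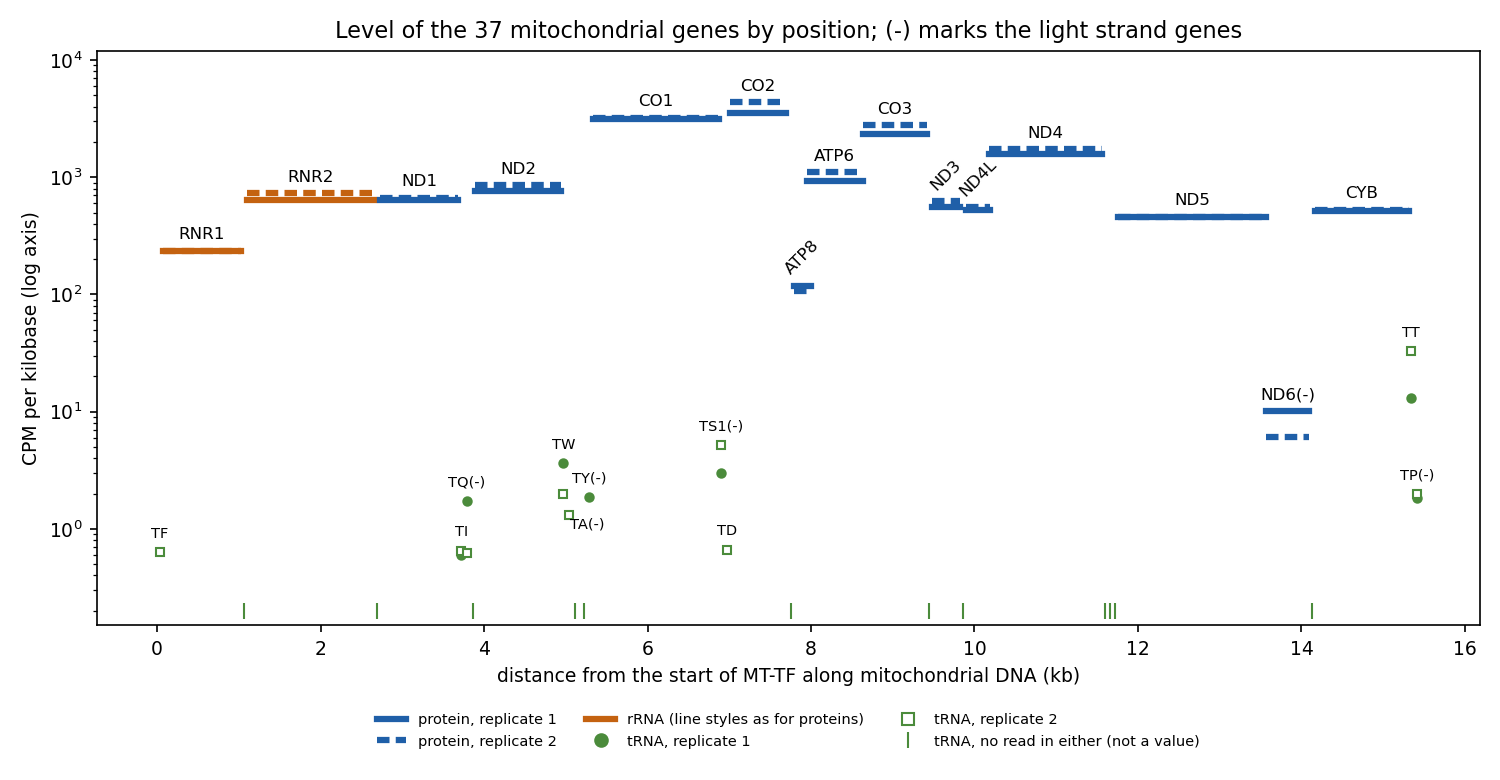
CPM per kilobase of gene length (log axis) against distance from the start of MT-TF, in kilobases, for both libraries. Lines are protein and ribosomal RNA genes drawn to length, points are transfer RNA genes with a read, and ticks at the bottom mark the 12 transfer RNA genes without a read. A library without a read for a gene is not drawn. The subunits of complex IV stand highest and the light strand gene MT-ND6 is the lowest of the 15 longer genes.

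The 3 mitochondrial subunits of complex IV, cytochrome c oxidase, which passes electrons to oxygen, were the highest per length. MT-CO2 (chrM:7586-8269) had 3524 CPM per kilobase in replicate 1 and 4375 in replicate 2. MT-CO1 (chrM:5904-7445), the subunit that holds the site of oxygen reduction, had 3123 and 3210 CPM per kilobase. MT-CO3 (chrM:9207-9990) had 2329 and 2766 CPM per kilobase. The ranges of the 3 genes over the 2 libraries did not overlap, and each library gave the same order. Together they took 55.7% of the mitochondrial reads in replicate 1 and 56.2% in replicate 2. By reads alone, without division by length, MT-CO1 led with 116256 and 109880 reads and was number 4 of all 62700 genes by mean CPM.

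The subunits of complex I, the NADH dehydrogenase, spread widely. MT-ND4 (chrM:10760-12137), one of its proton-pumping subunits, was the highest with 1567 and 1726 CPM per kilobase. MT-ND2 (chrM:4470-5511) had 765 and 858, MT-ND1 (chrM:3307-4262) 637 and 667, and MT-ND3 (chrM:10059-10404) 556 and 624 CPM per kilobase. MT-ND4L (chrM:10470-10766) had 528 and 555, and MT-ND5 (chrM:12337-14148), the longest of the 13 at 1812 bases, 455 and 459 CPM per kilobase. The 6 heavy strand subunits thus lay within 455 to 1726 CPM per kilobase, all below the 3 subunits of complex IV. The 7 subunits, MT-ND6 included, held 29.2% and 28.5% of the mitochondrial reads.

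MT-CYB (chrM:14747-15887), the cytochrome b of complex III, had 510 and 529 CPM per kilobase, and its range overlapped that of MT-ND4L. Of the subunits of ATP synthase, MT-ATP6 (chrM:8527-9207), part of its proton channel, had 926 and 1104 CPM per kilobase. MT-ATP8 (chrM:8366-8572), a small membrane subunit of 207 bases and the shortest of the 13 genes, had 592 and 492 reads, or 118 and 107 CPM per kilobase. In the gene table MT-ATP8 was therefore the lowest heavy strand protein gene, 35.0-fold below MT-CO2 by mean CPM per kilobase. The transcript table did not place it lowest but beside MT-ATP6, as given below.

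The 2 ribosomal RNAs were measured at levels within the range of the messenger RNAs. MT-RNR2 (chrM:1671-3229), the RNA of the large ribosomal subunit, had 24094 and 25268 reads, or 640 and 730 CPM per kilobase, and its range overlapped that of MT-ND1. MT-RNR1 (chrM:648-1601), the RNA of the small subunit, had 5441 and 5009 reads, or 236 and 237 CPM per kilobase. MT-RNR2 was 2.71 times MT-RNR1 per length in replicate 1 and 3.09 times in replicate 2. Since polyadenylated RNA was selected, these are levels in the selected RNA and not of all ribosomal RNA in the cells. Spearman's rho of CPM per kilobase with position was -0.27 over the 15 longer genes, which include MT-ND6 of the light strand, a description across genes that share their libraries.

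Reads of transfer RNA genes were near the limit of the counts. A read was counted for 7 of the 22 genes in replicate 1 and for 9 in replicate 2, with 42 and 68 reads in all. No read was counted in either library for 12 of the 22, among them MT-TV, MT-TL1 and MT-TL2. The 22 genes are 59 to 75 bases long, and all are listed at 0 TPM in the transcript table. The libraries were made from polyadenylated RNA, so these counts are not levels of all transfer RNA in the cells. No transfer RNA gene reached 100 reads over both libraries. MT-TT, for threonine, is named here after its values were seen, since it had more reads than any other. It had 21 reads in replicate 1, or 0.870 CPM with a 95% Wilson interval of 0.569 to 1.33, and 48 in replicate 2, or 2.16 CPM (1.63 to 2.87). The other 21 genes together had 21 and 20 reads. MT-TT starts with a gap of 0 bases after MT-CYB, whose sequence ends in a single T of its stop. It lies at chrM:15888-15953 on the plus strand and is printed because no other transfer RNA gene had as many reads.
MT-TT: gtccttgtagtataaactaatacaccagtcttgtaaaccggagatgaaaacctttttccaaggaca

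The lowest protein gene was that of the light strand. MT-ND6 (chrM:14149-14673, minus strand), the complex I subunit and the single protein gene of the light strand, had 129 reads in replicate 1, or 5.34 CPM with a 95% Wilson interval of 4.50 to 6.35. In replicate 2 it had 71 reads, or 3.20 CPM (2.54 to 4.03). Per length it was at 10.2 and 6.09 CPM per kilobase, against 455 and 459 for its neighbour MT-ND5 on the other strand. MT-ND5 was thus 44.7 times as high in replicate 1 and 75.4 times in replicate 2. The 8 transfer RNA genes of the light strand had 14 reads in each library. Because polyadenylated RNA was selected, these are levels in the selected RNA and not of all light strand RNA in the cells. The base composition of MT-ND6 is also apart from that of the other 12, with 35.6% G and 7.05% C in its RNA, where the heavy strand messenger RNAs have 6.28% to 16.2% G and 29.5% to 36.0% C. Its first bases (chrM:14614-14673, minus strand, start codon in capitals) show this.
MT-ND6: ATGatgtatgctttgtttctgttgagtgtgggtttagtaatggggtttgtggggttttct
The kit keeps the strand of the RNA, per the labels. Whether the counting used it is not given in the sources used here, and without it reads of MT-ND6 and of RNA from the opposite strand could not be told apart.

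Most heavy strand genes were slightly higher in replicate 2, and MT-ND6 was lower. A two-sided binomial test in edgeR on the recovered reads, with Benjamini-Hochberg adjustment over 15299 genes, called 11 mitochondrial genes higher and 1 lower among the 16 that passed the filter on low counts. The other 21, all transfer RNA genes, did not pass it. The test compares these 2 libraries and not conditions. Of all genes tested, 6.78% were called higher and 6.35% lower (13.1% in either direction). With many reads small differences are called. Among the 1318 genes with at least 7000 reads over both libraries, a limit chosen after the values were seen, 43.7% were called in either direction, and among the 9389 with a mean of at least 10 CPM 19.1% were. Of the 13 mitochondrial genes with at least 7000 reads, 10 were called, all higher in replicate 2. Among all 1318 such genes 326 were called higher.

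Among the 13 genes with at least 7000 reads, the differences were largest in 3 that lie close together, MT-CO2, MT-ATP6 and MT-CO3. MT-CO2 rose from 2410 to 2992 CPM, 1.24-fold (95% exact interval 1.23 to 1.26), with an adjusted p in edgeR below the smallest number that could be stored. MT-ATP6 rose from 631 to 752 CPM, 1.19-fold (1.17 to 1.22; edgeR adjusted p of 5.9e-56). MT-CO3 rose from 1826 to 2169 CPM, 1.19-fold (1.17 to 1.20; edgeR adjusted p of 1.7e-156). MT-ATP8, which lies between MT-CO2 and MT-ATP6, went from 24.5 to 22.2 CPM, a ratio of 0.904 (0.800 to 1.02), and was not called (edgeR adjusted p of 0.36). On the log2(CPM + 1) scale the 3 genes differed by 0.31, 0.25 and 0.25. These lie above the 95th percentile of the genes with at least 7000 reads, 0.16.

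**Figure D2:**
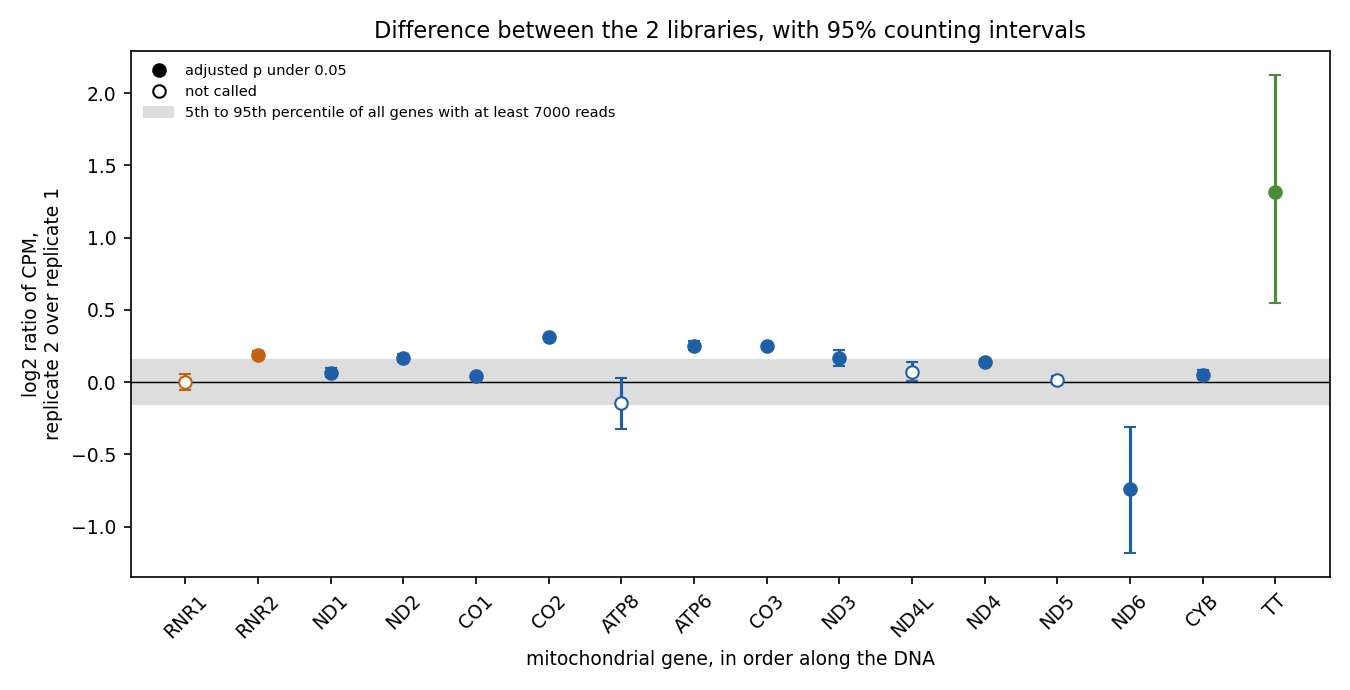
Log2 ratio of CPM, replicate 2 over replicate 1, for the 15 longer genes and MT-TT in order along the DNA, with 95% exact binomial intervals that cover counting error. Filled points passed the edgeR test, and the grey band spans the 5th to the 95th percentile, -0.15 to 0.16, of all genes with at least 7000 reads. MT-CO2, MT-ATP6, MT-CO3 and MT-RNR2 lie above the band, MT-ND2 and MT-ND3 just above its edge and MT-TT far above it with a wide interval, and MT-ND6 lies below the band, also with a wide interval.

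MT-RNR2 rose 1.14-fold (95% exact interval 1.12 to 1.16), from 998 to 1138 CPM, and MT-ND2 and MT-ND3 rose 1.12-fold each. With the 3 genes above these make 6 of 13 over the 95th percentile of such genes. MT-ND4 rose 1.102-fold (1.09 to 1.12), MT-ND1 1.05-fold (1.02 to 1.07), MT-CYB 1.04-fold (1.01 to 1.06) and MT-CO1 1.03-fold (1.02 to 1.04). Although called, these 4 lie inside the central 90% of the genes with as many reads. MT-RNR1 (ratio 1.00, 0.963 to 1.04) and MT-ND5 (1.01, 0.989 to 1.03) were not called. MT-ND4L was not called either (edgeR adjusted p of 0.10), although the interval of its ratio of 1.05, 1.004 to 1.101, lies above 1. The members thus differed among themselves: in the same pair of libraries MT-CO2 moved 1.24-fold while MT-CO1, its neighbour and partner in complex IV, moved 1.03-fold, and their intervals do not overlap.

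The 2 low genes went apart. MT-ND6 fell to 0.598 times its level in replicate 1 (95% exact interval 0.442 to 0.806; edgeR adjusted p of 0.0068), from 129 to 71 reads. MT-TT rose 2.49-fold (1.46 to 4.37; edgeR adjusted p of 0.0056), from 21 to 48 reads. For the 16 mitochondrial genes averaging 1 CPM or more the median log2 difference was 0.11, and 14 of 16 were higher in replicate 2. Over all 13898 genes at that level the median was -0.0077 and 47.8% were higher. MT-TT, at 0.870 and 2.16 CPM, reached a mean of 1 CPM only through replicate 2, so its direction adds nothing to the count. Without MT-TT and MT-ND6 the median of the mitochondrial genes was still 0.11. These genes are not separate observations, since the long RNAs hold several of them. Spearman's rho between the difference and the mean CPM per kilobase was 0.77 over the 15 longer genes, as a description across genes of the same libraries, and 0.00 with length. The mean holds both libraries of the difference, so these 2 measures are not independent. MT-ND6 and MT-ATP8, the lowest of the 15 in level, also had the lowest differences, -0.60 and -0.14 on the log2(CPM + 1) scale. With 1 library on each side none of these differences has a replicate check.

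The transcript table, made with salmon, gave the same genes at the top but another place for the short genes. TPM is a share of transcripts, corrected for length. The 37 genes held 2.92% of TPM in replicate 1 and 3.29% in replicate 2. MT-CO2 led with 6595 ± 1000 TPM, followed by MT-CO1 with 4347 ± 78.1 and MT-CO3 with 4219 ± 505 TPM (SD, n = 2 each). The ranges of MT-CO1 and MT-CO3 overlapped, and their order differed between the libraries. In replicate 1 MT-CO1 was higher, at 4292 against 3862 TPM. In replicate 2 MT-CO3 was higher, at 4576 against 4402 TPM. MT-ATP8 stood at 2062 ± 116 TPM beside MT-ATP6 at 2325 ± 273 TPM (SD, n = 2 each), so that MT-ATP6 was 1.08 and 1.17 times MT-ATP8. In the gene table MT-ATP6 was 7.81 and 10.3 times MT-ATP8 per kilobase. Dividing by the length that no neighbour shares, 161 bases for MT-ATP8, left ratios of 6.53 and 8.61. Reads that lie partly in the shared bases are not accounted for by this division.

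The same held in part for MT-ND4L, whose overlap with MT-ND4 is printed above. MT-ND4 was 2.97 and 3.11 times MT-ND4L by CPM per kilobase, and 1.04 and 1.07 times by TPM. To place all 15 longer genes on 1 scale, each gene's share of reads was divided by its share of TPM times length, with the median gene set to 1. MT-ATP8 then stood at 0.0983 in replicate 1 and 0.0824 in replicate 2, MT-ND4L at 0.406 and 0.404, MT-ND3 at 0.542 and 0.549 and MT-ATP6 at 0.713 and 0.724. The 4 lowest genes on this scale include the 3 shortest, at 207, 297 and 346 bases. MT-ND5, the longest, stood at 1.46 and 1.49. MT-ND6, at 525 bases, stood at 1.24 and 1.74, the highest value in replicate 2, so the scale did not follow length throughout. Salmon divides by an effective length that the table does not give, and how reads in shared bases were counted is not given in the sources used here, so the part of either was not tested.

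**Figure D3:**
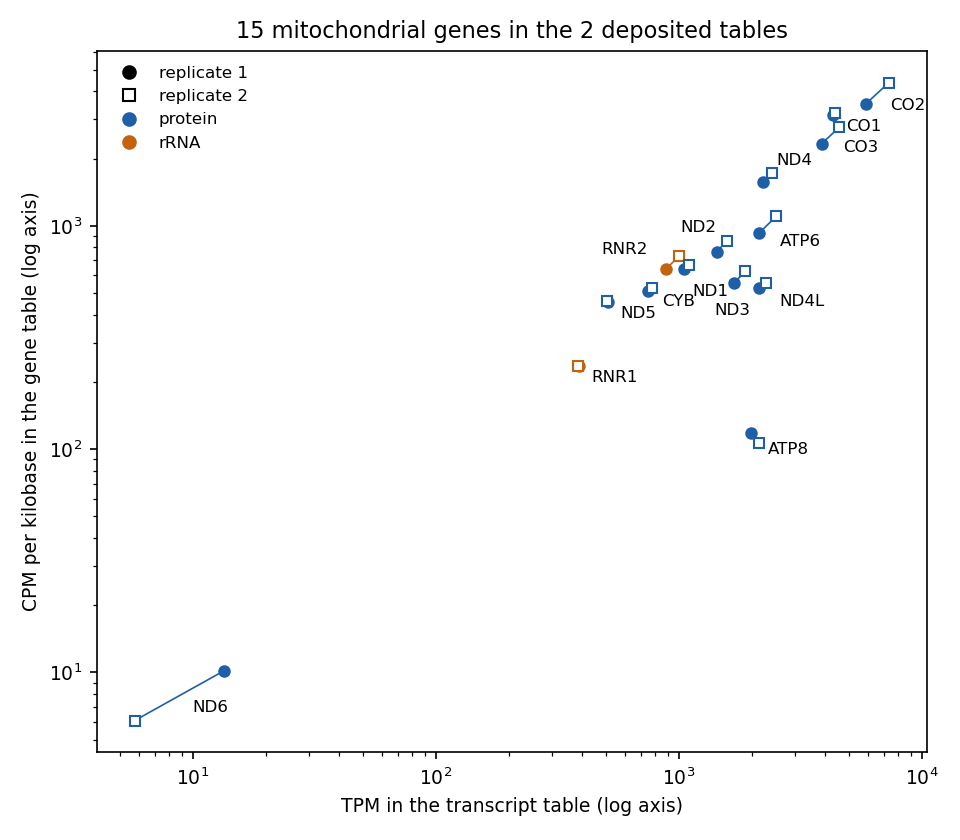
CPM per kilobase in the gene table against TPM in the transcript table, both on log axes, for the 13 protein and 2 ribosomal RNA genes, with replicate 1 filled and replicate 2 open. MT-ATP8 lies far below the other genes of its TPM, and MT-ND6 is the lowest in both tables.

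The tables gave opposite directions between the libraries for 3 genes, none of them called. MT-ATP8 differed by -0.14 on the log2 scale in CPM and by 0.11 in TPM. MT-ND6 kept its direction, from 13.5 TPM in replicate 1 to 5.77 TPM in replicate 2. MT-ND5 differed by 0.01 in CPM and -0.01 in TPM, and MT-RNR1 by 0.00 and -0.01, on the log2 scale.

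Copies of mitochondrial genes in nuclear DNA can share reads with the genes themselves. The gene table lists 404 genes named as such copies, of which 13 had a read, with 3807 reads in replicate 1 and 4020 in replicate 2 in all. A single stretch of chromosome 1, from 629062 to 634922, held 6 of the 13 and 99.9% and 99.7% of these reads. The copies there follow the order of the mitochondrial genes, from MTND1P23 and MTND2P28 over MTCO1P12 and MTCO2P12 to MTATP6P1 and MTCO3P12. Outside it no copy had more than 5 reads over both libraries.

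MTATP6P1 (chr1:633696-634376) had 2951 and 3189 reads, which is 16.24% and 16.05% of the reads of the copy and MT-ATP6 together. It matches MT-ATP6 over all 681 bases with 671 identical (98.5%), and its longest identical stretch is 141 bases. MTND1P23 (chr1:629062-629433) had 597 and 617 reads, 3.90% and 4.18% of the reads of the copy and MT-ND1, with 349 of 352 aligned bases identical (99.1%). It is 372 bases long and MT-ND1 956, and by TPM, which accounts for length, it held 24.1% and 25.2% of the sum with MT-ND1, above the 14.56% and 14.58% of MTATP6P1. MTCO1P12 had 220 and 172 reads, MTND2P28 31 and 22, and MTCO2P12 3 and 4, each under 0.2% of the reads summed with its mitochondrial gene, at 98.7%, 98.4% and 98.2% identity. The order of the 5 copies by share of reads was not their order by identity. The start of MT-ATP6 and of its copy is printed to show how close they are, with the single mismatch of this window in capitals (chrM:8527-8574 and chr1:633696-633743, plus strands).
MT-ATP6: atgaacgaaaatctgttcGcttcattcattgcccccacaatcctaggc
MTATP6P1: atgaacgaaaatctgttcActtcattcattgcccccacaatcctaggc

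**Figure D4:**
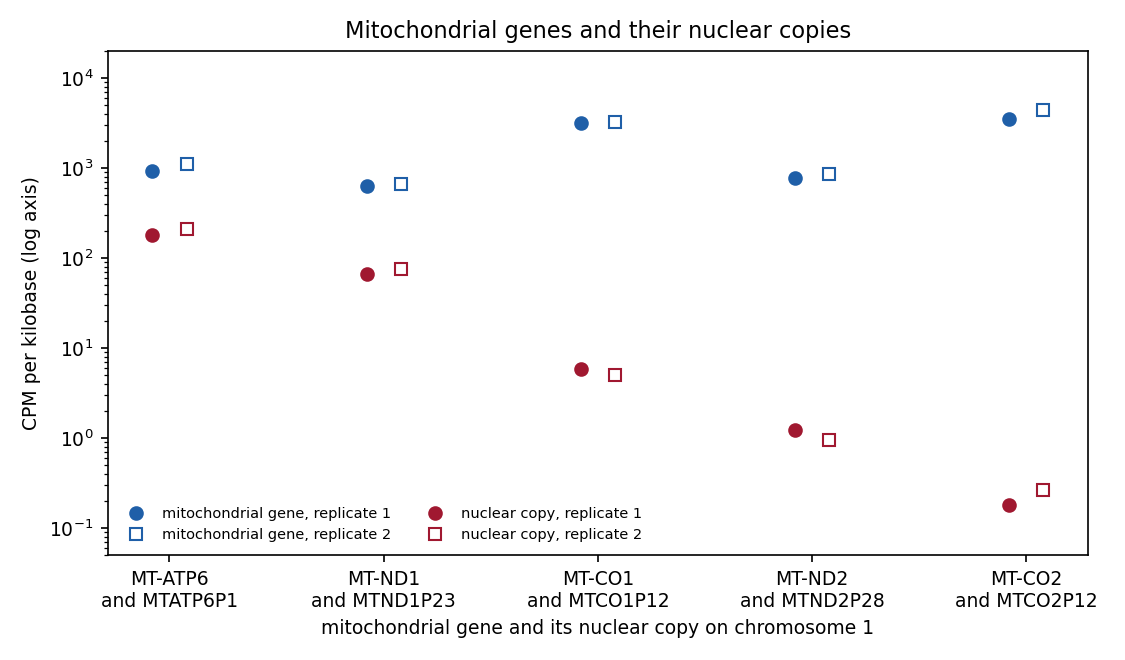
CPM per kilobase (log axis) of 5 mitochondrial genes (blue) and of their copies on chromosome 1 (red), with replicate 1 filled and replicate 2 open. On this scale the copy of MT-ATP6 lies closest to its gene, at 180 and 211 against 926 and 1104 CPM per kilobase, and the copy of MT-CO2 lies farthest below.

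Between the libraries MTATP6P1 moved with MT-ATP6, by 0.23 against 0.25 on the log2(CPM + 1) scale. MTND1P23 differed by 0.16 and was not called (edgeR adjusted p of 0.16). Adding all copies to the mitochondrial genes would raise their share of reads from 1.71% to 1.73% as the mean of the libraries. How reads that match a gene and its copy equally were counted is not given in the sources used here. The reads listed under the copies therefore do not bound how uncertain the levels of MT-ATP6 and MT-ND1 are. The same holds for MT-ND2 and MT-CO1, whose longest identical stretches with their copies are 266 and 245 bases. The origin of the reads listed under the copies was not tested.

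The nuclear genes that copy and process mitochondrial RNA showed few differences between the libraries. The list of 38 symbols names the polymerase, transcription and replication factors, the enzymes that cut out transfer RNAs and the proteins that stabilise or degrade the messenger RNAs, and 37 matched (TBRG4 is also known by the unmatched name FASTKD4). Of 36 tested, 1 was called lower and 0 higher by the edgeR test, against 13.1% of all genes called in either direction. The called gene was PNPT1, which encodes polynucleotide phosphorylase, a nuclease that degrades mitochondrial RNA. It fell from 148 to 131 CPM, by 0.18 on the log2(CPM + 1) scale (edgeR adjusted p of 3.8e-05).

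LRPPRC, which stabilises mitochondrial messenger RNAs, was the highest of the list at 654 ± 1.49 CPM, followed by GRSF1, an RNA-binding protein of mitochondrial RNA granules, at 165 ± 0.976 and PNPT1 at 140 ± 12.5 CPM (SD, n = 2 each). The lowest were MRM2, an rRNA methyltransferase, at 0.301 ± 0.0432 CPM, PRORP, the nuclease of mitochondrial RNase P, at 3.37 ± 0.261 and TEFM, an elongation factor of transcription, at 10.0 ± 0.381 CPM (SD, n = 2 each). The polymerase POLRMT was at 102 ± 1.60 and the transcription and packaging factor TFAM at 116 ± 0.570 CPM (SD, n = 2 each), and neither was called. The median log2 difference of the 36 listed genes averaging 1 CPM or more was -0.0058, close to that of all genes, where the mitochondrial genes had 0.11.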

How the data were processed

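Polyadenylated RNA of 2 replicate libraries of 1 group was analysed. Per the submitters' processing notes, reads were handled with Trim Galore 0.6.10, STAR 2.7.11a, DESeq2 and Salmon 1.10.2 on GRCh38, and which step made which table is not given in the sources used here. The deposited gene table holds a signal, reads divided by 1 factor per library, although its name says CPM. Dividing each deposited signal by what 1 read is worth in that library gave whole reads (100% of values within 0.001). The deposited transcript table holds TPM. The gene identifiers have no column name, so library names were assigned to the value columns in their order in the header.

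CPM is relative to all recovered reads in genes. Coordinates, lengths and sequences are from GENCODE release 29 on GRCh38. The annotation behind the gene table is not given in the sources used here. A gene at 0 reads could hold up to 3. Intervals cover counting error only, since reads carry no molecular identifiers. The libraries were compared by edgeR 4.0.16 binomTest (TMM, filterByExpr, threshold 0.05), which uses a chi-square test above 10000 reads per gene. With 1 library on each side, a quasi-likelihood fit and a DESeq2 test have no residual degrees of freedom. Differences are log2((CPM + 1)/(CPM + 1)), which understates low genes. In 1 simulated pair of 15384 genes, 80% of 200 genes changed 2-fold were recovered (97.5% of those with at least 100 reads) and 5 unchanged genes were called. The simulated reads varied by counting error alone, so this pair does not show how reliable calls between the real libraries are. Copies were aligned with Biopython 1.88.

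Named genes are the 37 members (transfer RNA genes by range below 100 reads), the 3 highest, 3 lowest and called genes of the RNA machinery list, the 5 copies with most reads and DDX53; POLRMT, TFAM and MTCO3P12 were added after their values were seen. Members and lists were chosen with earlier results of these data known. Alternatives covered scaling (DESeq2 1.42.0 size factors, deposited factors, totals), filter, pseudocount, thresholds, TPM and each library alone.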

Additional observations from a re-analysis of the deposited data

How the results depend on the processing

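No paired analysis was possible because both libraries are replicates of 1 group. Leaving out either library leaves no difference between libraries to compute. Levels of each library alone gave a share of reads of 1.63% to 1.80% and 15 to 16 genes at 1 CPM or more. They put no gene of the 13 at another place in the order by CPM per kilobase. The mean share of reads, 1.71%, became 3.10% as a share of TPM and 1.30% without the 10 highest genes, which include MT-CO1. By TPM the classes held 95.7% (protein), 4.29% (rRNA) and 0.0% (tRNA). In the order of the 13 protein genes, 8 genes changed place with TPM and 11 without division by length. The cause of the TPM shifts was not tested; the others follow from their construction. The count of 12 called genes and its split of 11 higher and 1 lower did not move beyond 1.5 times under any scaling or filter tried. The median log2 difference of 0.11 became 0.064 over all members with a read, and kept its sign. Among 79 alternatives for 16 single genes, 76 kept their direction. Under the other scalings, where the test was run again, each gene also kept its call. Another pseudocount and TPM were not tested. The 3 that reversed used TPM: MT-RNR1 (-0.0064), MT-ATP8 (0.11) and MT-ND5 (-0.012), none of them called, and the cause was not tested. Depth limits MT-ND6 and the transfer RNA genes, whose intervals are wide.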
